A study of Mus musculus with 44 samples.

Results

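The genes Clu, Wfdc2, Cd44 and Dmbt1, markers of spasmolytic polypeptide-expressing metaplasia (SPEM) in the stomach, were followed through the 44 RNA libraries of a study on gastrin and the gastric corpus mucosa. They are 4 of the 31484 genes in the deposited table, and were taken by gene name, with all transcripts of a gene summed and the 9 transcripts of Cd44 also read apart. All mice carried a BalbC background, were 13 months old and, by the study's methods, were female. KO mice lacked the beta subunit of the H+/K+ATPase, the proton pump of the acid-secreting parietal cell, in every cell from conception, and WT mice carried the intact gene. Mice of both genotypes were given either the gastrin receptor antagonist netazepide (NTZ, named yf in the labels) or its vehicle polyethylene glycol (PEG) by repeated subcutaneous injection, which gave 13 KO/PEG and 11 KO/NTZ libraries against 11 of WT/PEG and 9 of WT/NTZ. The comparisons asked what the missing pump subunit did to the 4 genes under vehicle and under NTZ, and whether blocking the gastrin receptor changed them in either genotype. Each library came from a piece of whole corpus mucosa, so fewer cells of a type and less RNA per cell cannot be told apart in any value given here.

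SPEM is a metaplasia of the acid-secreting part of the stomach in which glands that have lost parietal cells come to hold mucous cells resembling the deep glands of the antrum. Clusterin, the product of Clu, is a secreted chaperone that binds misfolded proteins outside the cell. Wfdc2 encodes a small secreted protein with WAP domains, which are found in many protease inhibitors, and Dmbt1 a large mucosal glycoprotein with scavenger receptor cysteine-rich domains that binds bacteria. Cd44 encodes a surface receptor for hyaluronan that is made by many cell types, leukocytes included. Its primary transcript is spliced either straight from the constant front part to the constant end part, giving the standard form, or through a choice of variable exons in the part of the gene that encodes the stem of the receptor, giving variant forms.

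Of the members, 2 had forms whose sequence differed in a way that bears on the results, and those sequences are printed here from the GENCODE vM21 transcripts (build GRCm38, 5′ to 3′). In Cd44 (gene ENSMUSG00000005087.17, minus strand, chr2:102811141-102901665) the standard form ENSMUST00000099673 joins the last constant exon before the variable block to the first one after it, and the main variant ENSMUST00000111194 enters and leaves the block by other junctions. Each junction is shown with the last 20 bases of the earlier exon in lower case and the first 20 bases of the next exon in capitals.
standard form ENSMUST00000099673: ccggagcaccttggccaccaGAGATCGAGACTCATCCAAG
into the first variable exon of ENSMUST00000111194: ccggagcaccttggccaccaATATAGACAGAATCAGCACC
out of the last variable exon of ENSMUST00000111194: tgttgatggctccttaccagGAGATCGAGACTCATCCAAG
The annotation holds 10 variable exons of 90 to 207 bases, numbered here in transcript order, and the length of every one is a multiple of 3. Variable exon 10 (chr2:102831330-102831536, minus strand, 207 bases) is the one that all 7 annotated variant transcripts contain and is shown whole, in capitals because all of it is absent from the standard form.
Cd44 variable exon 10: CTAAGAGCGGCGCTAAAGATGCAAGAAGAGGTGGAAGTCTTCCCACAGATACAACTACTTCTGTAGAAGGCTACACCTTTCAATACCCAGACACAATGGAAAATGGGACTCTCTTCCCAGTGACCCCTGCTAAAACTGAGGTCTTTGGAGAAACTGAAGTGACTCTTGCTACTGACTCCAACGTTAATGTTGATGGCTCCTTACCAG
In Wfdc2 (ENSMUSG00000017723.11, plus strand, chr2:164562413-164568510) the coding sequence of ENSMUST00000017867 is 525 bases with its stop codon. Bases 80 to 379 of it, counted from the start codon (chr2:164563308-164564212 with an intron between), are absent from the exons of the short form ENSMUST00000109344, and the other 225 bases are shared. The 300 absent bases are shown, all in capitals.
Wfdc2 coding bases absent from the short form: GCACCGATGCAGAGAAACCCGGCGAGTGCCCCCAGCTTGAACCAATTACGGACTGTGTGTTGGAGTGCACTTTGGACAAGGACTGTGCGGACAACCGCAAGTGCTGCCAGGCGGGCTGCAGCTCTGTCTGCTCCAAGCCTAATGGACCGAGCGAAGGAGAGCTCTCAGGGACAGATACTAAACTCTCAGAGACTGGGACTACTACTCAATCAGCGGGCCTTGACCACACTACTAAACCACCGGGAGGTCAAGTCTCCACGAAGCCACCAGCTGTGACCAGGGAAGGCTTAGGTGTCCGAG

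The libraries held 6065084 to 21945124 estimated counts each, so that 3 counts, taken as the floor of detection, were worth 0.137 to 0.495 counts per 1000000 (CPM). Atp4b, the gene deleted in KO mice, had 2891 to 5738 CPM in WT/PEG and 2.28 to 17.0 CPM in KO/PEG libraries, and 2139 to 5074 CPM in WT/NTZ and 4.21 to 40.6 CPM in KO/NTZ libraries, so every library matched its genotype label. The parietal markers (Atp4a, Atp4b, Slc26a7 and Kcne2, summed) were at 9311 to 15311 CPM in WT/PEG and at 1971 to 7156 CPM in KO/PEG. This sum includes the deleted gene, so part of its fall was fixed by the genotype. Mitochondrial genes took 5.83 to 11.8% of the counts in WT and 1.88 to 14.5% in KO libraries. Of the libraries, named here by their labels, KO_46_KO_PEG and WT_118_WT_YF stood apart, with the highest Dmbt1 and Cd44 of their genotypes, and 4 libraries (WT_120_WT_PEG, WT_117_WT_YF, WT_118_WT_YF and KO_36_KO_YF) held over 10 CPM of Gast, the hormone gene of the antrum. In the labels 2 WT/PEG libraries have the same animal number, and so do 1 library of KO/PEG and 1 of KO/NTZ, and there are more KO/PEG libraries than the mice of that group in the study's methods. Apart from the 2 WT/PEG libraries, the numbers within a group all differ. Nothing else in the labels says that the libraries of a group came from separate animals, so the p-values measure the spread between libraries. All WT/PEG libraries had animal numbers of 100 or above, against 1 of 11 in KO/NTZ, and results that depend on that split are given with it.

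Clu was the most abundant member in every group, and it rose 10.9-fold in KO/PEG compared with WT/PEG mice. The gene (ENSMUSG00000022037.15) lies on the plus strand at chr14:65968483-65981547. Clu ranged from 769 to 1297 CPM in WT/PEG libraries, with a median of 1059, and from 3455 to 22638 CPM in KO/PEG libraries, with a median of 11328. All 13 KO/PEG libraries were above all 11 WT/PEG libraries, and the KO/PEG library nearest to the WT range, KO_46_KO_PEG, still had more than any WT/PEG library. The log2 fold change was 3.45 (SE 0.20, adjusted p = 4.71e-18 by edgeR's quasi-likelihood test over 14901 genes). In this comparison 37.5% of all genes tested were called higher and 37.2% lower at an adjusted p under 0.05, and 5.46% had every KO/PEG library above every WT/PEG library, so a call alone was common and complete separation upward was not. Clu ranged from 960 to 1300 CPM in WT/NTZ libraries (median 1127) and from 7139 to 21037 CPM in KO/NTZ libraries (median 11981), again without overlap. The fold change under NTZ was 11.6 (log2 3.53, SE 0.22, adjusted p = 1.48e-16), against 35.6% of genes called higher, 36.8% called lower and 14.4% with every KO/NTZ above every WT/NTZ library.

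**Figure D1:**
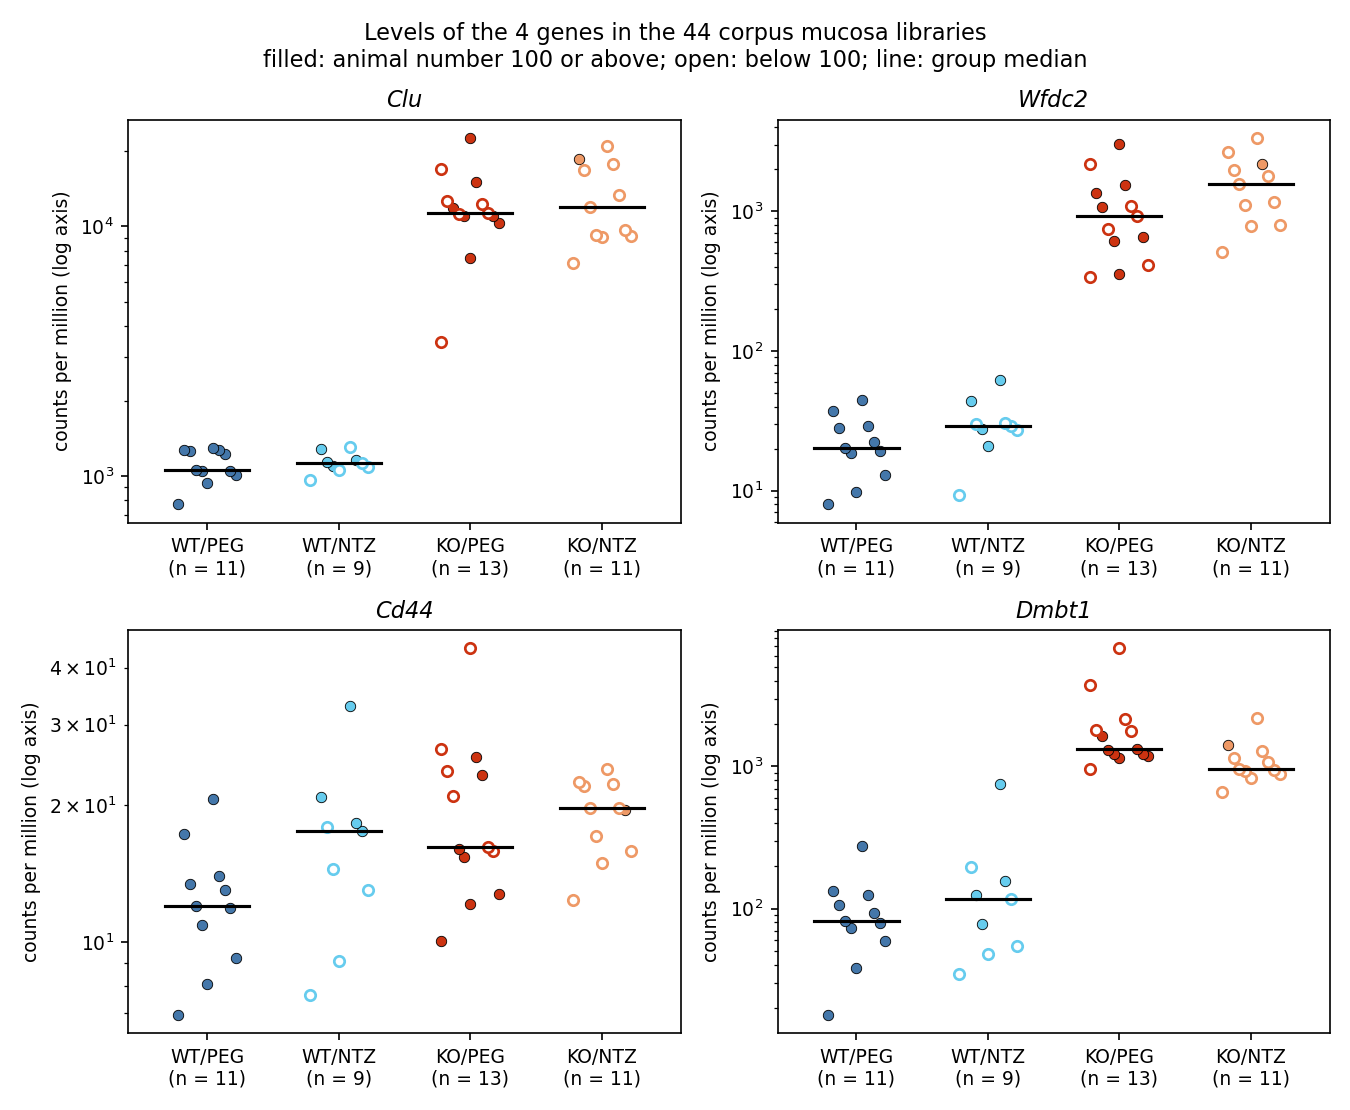
Level of each of the 4 genes in CPM (log axis) by group, 1 point per library, with the group median as a line and open points for animal numbers below 100. Clu and Wfdc2 separate all KO from all WT libraries, Dmbt1 does so except for 1 WT/NTZ library at 749 CPM, and the groups overlap for Cd44.

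Nearly all of the Clu counts belonged to 1 transcript, and 2 minor transcripts went the other way. ENSMUST00000022616, which encodes the full protein, had a median of 1044 CPM in WT/PEG and 11254 CPM in KO/PEG libraries (log2 fold change 3.44, SE 0.20, adjusted p = 1.43e-17 over 30782 transcripts). ENSMUST00000138665, annotated as a target of nonsense-mediated decay, had a median of 30.1 CPM in WT/PEG and 2.15 CPM in KO/PEG libraries and fell by 3.11 on the log2 scale (SE 0.58, adjusted p = 1.79e-05). ENSMUST00000153460, an incomplete coding model, had medians of 6.31 and 1.95 CPM and fell by 1.85 (SE 0.47, adjusted p = 9.47e-04). Of the 24 transcripts of the 4 genes in the table, 12 had enough counts to be tested, of which 8 were higher and 3 lower in KO/PEG, and 53.5% of all transcripts tested were called in this comparison. The counts of overlapping transcripts are estimates that share most of their reads, so the minor ones are the less certain.

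Wfdc2 had the largest fold change of the 4 genes in KO mice. It ranged from 7.97 to 44.7 CPM in WT/PEG libraries (median 20.2) and from 339 to 3041 CPM in KO/PEG libraries (median 933). All 13 KO/PEG libraries were above all WT/PEG libraries, which held for 5.46% of all genes tested. The fold change was 48.5 (log2 5.60, SE 0.41, adjusted p = 4.33e-15, edgeR). WT/NTZ libraries held 9.38 to 61.8 CPM (median 29.2) and KO/NTZ libraries 511 to 3354 CPM (median 1579), which was a 52.2-fold difference (log2 5.71, SE 0.45, adjusted p = 1.10e-13). Within each KO group the libraries were spread widely, and no KO library came near the WT range. Under NTZ, 14.4% of all genes had every KO/NTZ library above every WT/NTZ library.

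All 5 transcripts of Wfdc2 rose in KO/PEG, but not by the same amount. The full-length ENSMUST00000017867 rose by 5.54 on the log2 scale (SE 0.41), ENSMUST00000109345 by 4.21 (SE 0.39) and the short ENSMUST00000109344, which lacks the 300 bases printed above, by 7.50 (SE 0.82). The short form had a median of 1.52 CPM in WT/PEG and 179 CPM in KO/PEG libraries, and of 2.98 CPM in WT/NTZ and 412 CPM in KO/NTZ libraries. As a share of the Wfdc2 counts of a library, it took 0 to 12.1% in WT/PEG (median 8.29%), 0 to 25.9% in WT/NTZ (median 6.16%), 10.5 to 40.1% in KO/PEG (median 21.8%) and 17.9 to 56.5% in KO/NTZ (median 31.2%). The share was above the whole WT/PEG range in 12 of 13 KO/PEG libraries and above the whole WT/NTZ range in 6 of 11 KO/NTZ libraries. It is a description, with no test, and rests on few counts in WT mice and on how the quantifier divided reads that fit more than 1 form.

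Within the WT groups Dmbt1 was the most variable of the 4 genes relative to its level. The gene (ENSMUSG00000047517.11, plus strand, chr7:131032053-131121630) has 6 annotated transcripts, of which the table holds 1, ENSMUST00000084509. Dmbt1 ranged from 17.9 to 278 CPM in WT/PEG libraries (median 82.3) and from 954 to 6770 CPM in KO/PEG libraries (median 1317). The groups did not overlap, which held in this direction for 5.46% of all genes. The difference was 20.4-fold (log2 4.35, SE 0.45, adjusted p = 6.70e-11, edgeR). Under NTZ the groups touched: WT/NTZ libraries held 34.8 to 749 CPM (median 116) and KO/NTZ libraries 660 to 2176 CPM (median 954), and 10 of 11 KO/NTZ libraries were above all WT/NTZ libraries. Every KO/NTZ library was above every WT/NTZ library for 14.4% of all genes. The fold change there was 6.44 (log2 2.69, SE 0.46, adjusted p = 2.52e-06), and it was larger, 3.45 on the log2 scale, without WT_118_WT_YF.

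The extreme Dmbt1 values belonged to libraries that also stood apart in other markers. KO_46_KO_PEG had 6770 CPM of Dmbt1, the highest of all libraries, with the lowest Clu (3455 CPM) and Wfdc2 (339 CPM) of the KO libraries and the highest Cd44 (44.1 CPM). Mitochondrial genes took 14.5% of its counts, the most of all libraries, where the KO/PEG median was 4.86%. Its 7 leukocyte markers summed to 102.9 CPM, where the KO/PEG median was 60.3 and KO_109_KO_PEG, with 1232 CPM of Dmbt1 and 23.3 CPM of Cd44, had 112 CPM. In KO_46_KO_PEG the mucous neck markers Muc6 and Tff2 summed to 1313 CPM, where the median was 13492. WT_118_WT_YF had 749 CPM of Dmbt1, a leukocyte marker sum of 102.6 CPM (WT/NTZ median 41.1), a parietal sum of 6029 CPM, the lowest of the WT libraries, and 31.3 CPM of Gast. WT_120_WT_PEG, with 14.6 CPM of Gast, had the highest Dmbt1 of its group, 278 CPM, and WT_117_WT_YF, with 40.0 CPM of Gast, had 157 CPM. Over the 24 KO libraries, with each group's mean taken off, r between the log2 levels of Dmbt1 and the leukocyte sum was 0.20 and rho 0.09 (permutation p = 0.405 and 0.693, adjusted p = 0.579 and 0.866 over 20 relations), and r was -0.04 without KO_46_KO_PEG and KO_45_KO_PEG, -0.06 among numbers of 100 or above and 0.23 below 100. Over the 20 WT libraries r was 0.41 and rho 0.05 (permutation p = 0.109 and 0.832, adjusted p = 0.242 and 0.896), and r was -0.07 without the 2 libraries farthest from the median of Dmbt1 and 0.50 among the 15 numbered 100 or above. Whether antral tissue had a part in the Dmbt1 level was not tested. Without the 4 libraries above 10 CPM of Gast, the Dmbt1 difference between KO/PEG and WT/PEG was 4.65 and that between KO/NTZ and WT/NTZ was 3.56 on the log2 scale, and both passed.

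Cd44 was the least abundant member and changed least. It ranged from 6.93 to 20.6 CPM in WT/PEG libraries (median 12.04) and from 10.1 to 44.1 CPM in KO/PEG libraries (median 16.2). The groups overlapped, with 6 of 13 KO/PEG libraries above all WT/PEG libraries and 12 of 13 above the WT/PEG median. The rise was 1.62-fold (log2 0.69, SE 0.20, adjusted p = 0.00237, edgeR). Among libraries with animal numbers of 100 or above, which held 7 KO/PEG libraries and all 11 WT/PEG libraries, it was 0.42 on the log2 scale and did not pass (adjusted p = 0.0745). WT/NTZ libraries held 7.67 to 33.0 CPM (median 17.5) and KO/NTZ libraries 12.4 to 23.96 CPM (median 19.6), and the difference between them did not pass (log2 0.17, SE 0.22, adjusted p = 0.493), although among animal numbers below 100 the difference was 0.61 and passed (adjusted p = 0.0284).

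The summed level of leukocyte markers moved with Cd44 in WT mice, and in KO mice the relation did not pass. The 7 leukocyte markers (Ptprc, Cd3e, Cd79a, Itgam, Cd68, Adgre1 and Csf1r) summed to 25.7 to 58.3 CPM in WT/PEG and 38.8 to 112 CPM in KO/PEG libraries, and to 24.9 to 102.6 CPM in WT/NTZ and 39.9 to 89.1 CPM in KO/NTZ libraries. Of the 6 that could be tested, 4 were higher and 0 lower in KO/PEG than in WT/PEG, where 37.5% of all genes were called higher and 37.2% lower. Cd79a of B cells rose most (medians of 0.388 and 4.83 CPM), and the pan-leukocyte gene Ptprc did not pass (log2 0.26, adjusted p = 0.558, edgeR). Itgam was at a median of 0 in 3 of the 4 groups. Csf1r was the largest part of the sum. Its mean was 18.5 of 35.0 CPM in WT/PEG and 33.4 of 65.9 CPM in KO/PEG libraries. Relations were taken with the sum only, so they do not tell the markers apart. Over the 20 WT libraries, with each group's mean taken off, Cd44 followed the leukocyte sum (log2 values, Pearson's r = 0.80, permutation p = 7e-05, adjusted p = 7e-04; Spearman's rho = 0.65, permutation p = 0.00377, adjusted p = 0.0377). The r was 0.67 without WT_93_WT_YF and WT_118_WT_YF, the libraries farthest from the median of Cd44, and 0.75 within the 15 WT libraries numbered 100 or above, and the 5 below 100 were too few for a correlation. Over the 24 KO libraries r was 0.47 and rho 0.46 (permutation p = 0.0332 and 0.0338, adjusted p = 0.101 and 0.169), and r was 0.26 without KO_46_KO_PEG and KO_143_KO_PEG. The part of leukocytes in the Cd44 difference between genotypes was not tested.

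**Figure D2:**
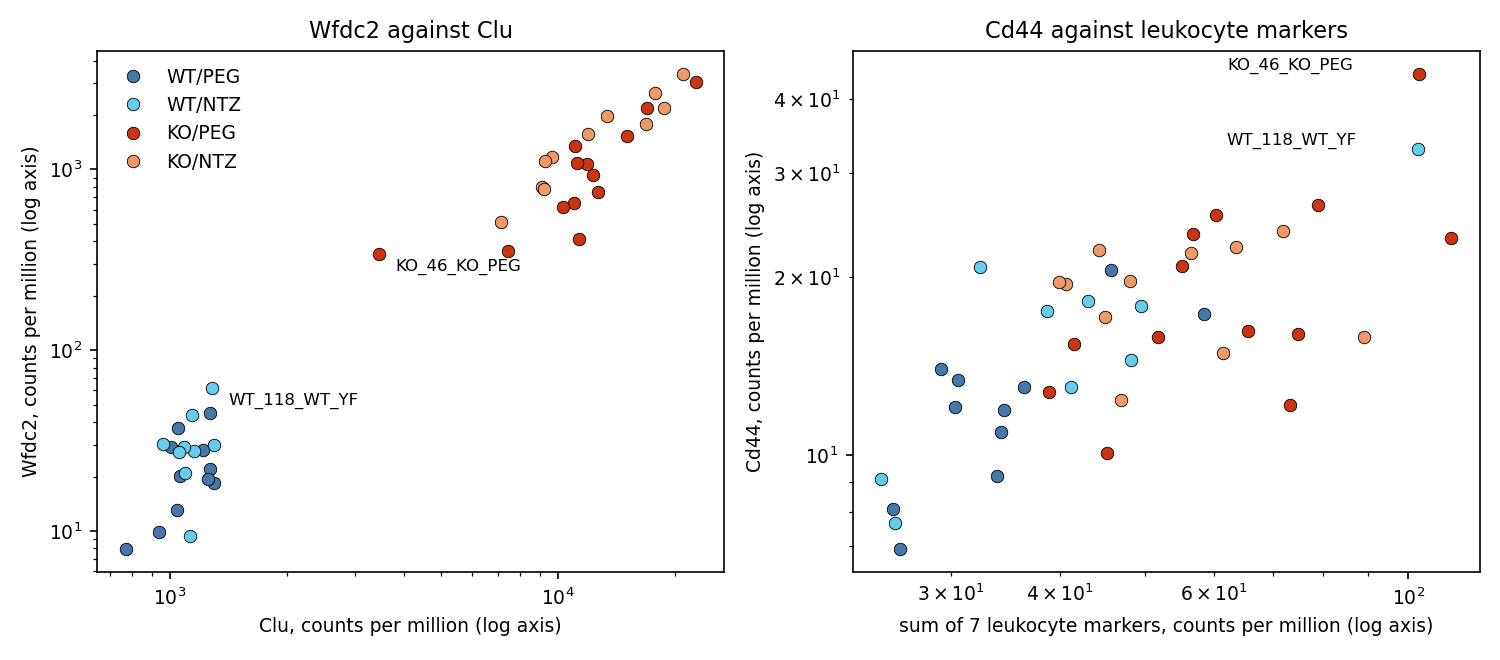
Wfdc2 against Clu (left) and Cd44 against the sum of 7 leukocyte markers (right), in CPM on log axes, 1 point per library coloured by group. KO and WT libraries form separate clouds on the left, where KO_46_KO_PEG has the lowest Clu and Wfdc2 of the KO libraries, and overlap on the right, where KO_46_KO_PEG and WT_118_WT_YF have the highest Cd44.

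Read by transcript, Cd44 changed in more than level: the standard form fell in KO mice while the main variant rose. ENSMUST00000099673, the standard form, ranged from 1.24 to 3.86 CPM in WT/PEG libraries (median 1.82) and from 0 to 1.54 CPM in KO/PEG libraries (median 0.372), and it fell by 2.12 on the log2 scale (SE 0.62, adjusted p = 0.00409). ENSMUST00000111194, which contains variable exons 5, 6, 8, 9 and 10, had medians of 9.35 and 14.2 CPM and rose by 0.91 (SE 0.24, adjusted p = 0.00153). ENSMUST00000005218, with all 10 variable exons, had medians of 0.702 and 2.27 CPM and did not pass (log2 0.89, SE 0.86, adjusted p = 0.396), although it did with limma-trend (1.78, adjusted p = 0.0264). As a share of Cd44 counts in WT/PEG libraries, ENSMUST00000111194 took 17.2 to 81.8% (median 77.1%). ENSMUST00000005218 took 0 to 70.9% there (median 5.55%), so the division between these 2 variants varied by library. The transcript tests were not repeated with libraries left out. Under NTZ the standard form again fell, by 1.59 (SE 0.68, adjusted p = 0.0434), in KO/NTZ compared with WT/NTZ libraries, and the main variant did not pass (log2 0.26, SE 0.26, adjusted p = 0.411). Of the 12 tested transcripts of the 4 genes 7 were higher and 3 lower in that comparison, where 56.8% of all transcripts were called.

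**Figure D3:**
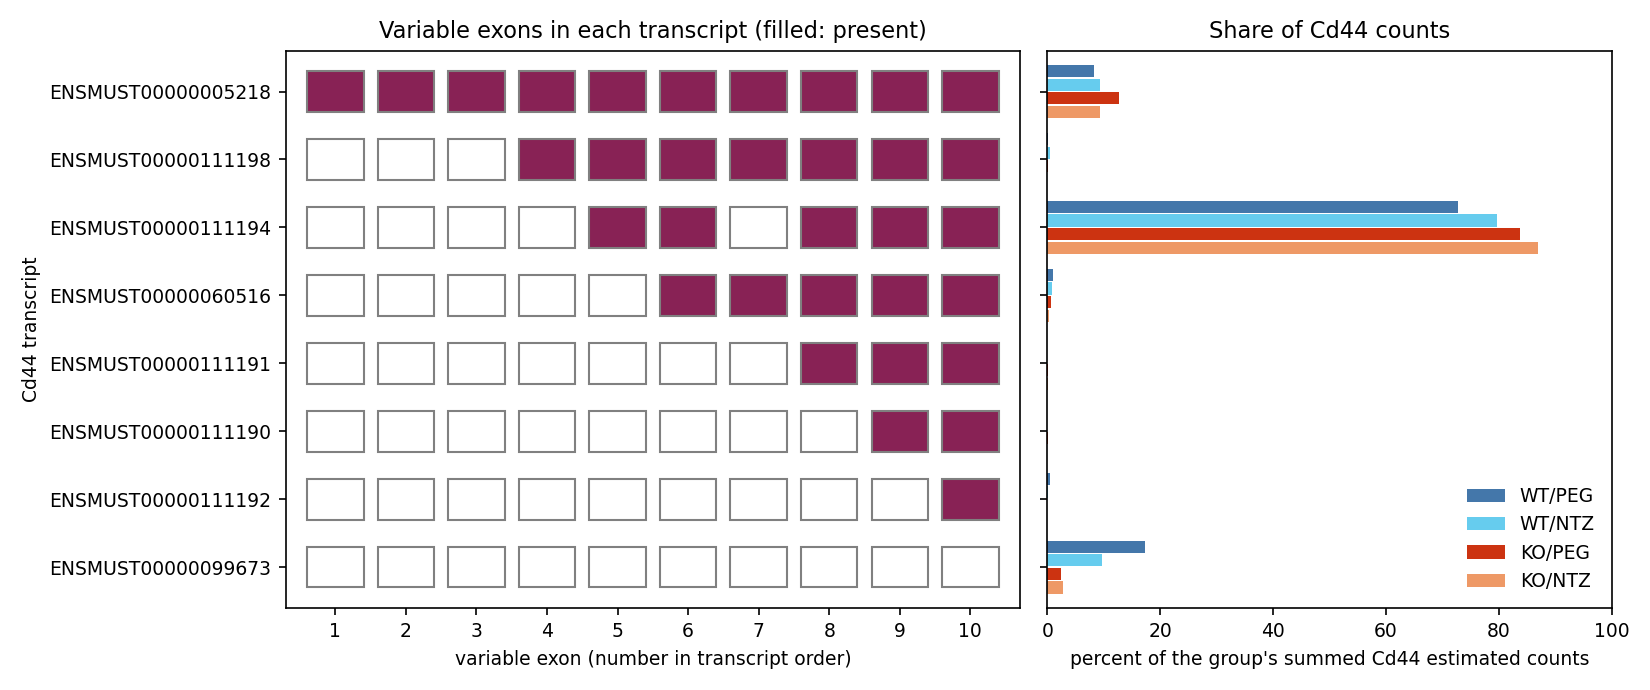
Left, the 10 variable exons (filled where present) of the 8 coding Cd44 transcripts. Right, the share of each group's summed Cd44 estimated counts given to each transcript, in percent: ENSMUST00000111194 takes 72.8% in WT/PEG and 83.7% in KO/PEG, and the standard form ENSMUST00000099673 takes 17.3% and 2.47%.

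The share of Cd44 counts given to the standard form was 8.33 to 28.3% in WT/PEG libraries (median 16.6%), 1.74 to 28.7% in WT/NTZ (median 12.2%), 0 to 9.38% in KO/PEG (median 2.53%) and 0 to 16.4% in KO/NTZ (median 1.55%). It was below the whole WT/PEG range in 11 of 13 KO/PEG libraries, 10 of 11 KO/NTZ libraries and 4 of 9 WT/NTZ libraries. The variant forms together took 82.5% ± 5.61 (SD, n = 11) of the counts in WT/PEG and 96.6% ± 3.03 (SD, n = 13) in KO/PEG, a difference of 14.0 percentage points (permutation test, two-sided, p = 1e-05, the smallest that 100000 resamples can give, adjusted p = 4e-05 over 4 comparisons). In WT/NTZ they took 87.7% ± 9.02 (SD, n = 9) and in KO/NTZ 96.1% ± 4.91 (SD, n = 11), a difference of 8.38 points (exact permutation test, p = 0.0145, adjusted p = 0.029). That difference did not pass without WT_86_WT_YF (7.83 points, adjusted p = 0.0521) or WT_93_WT_YF (7.09 points, adjusted p = 0.0601) by the same permutation test, nor among libraries with 100 or more Cd44 counts (6.27 points, adjusted p = 0.120). NTZ itself moved the share by -0.50 points in KO mice (permutation p = 0.790) and by 5.14 points in WT mice (exact permutation p = 0.136). The WT value was 11.2 points and passed among numbers of 100 or above (exact permutation test, adjusted p = 0.00293), and 7.19 points and passed without WT_98_WT_YF (exact permutation test, adjusted p = 0.0448).

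The Cd44 counts behind these shares were few, 65 to 382 per WT/PEG library and 79 to 685 per KO/PEG library, and the annotated ends of the forms differ. ENSMUST00000111194 and ENSMUST00000005218 carry 2992 bases after the stop codon, against 1586 in the standard form and 1603 in ENSMUST00000060516, a variant with exons 6 to 10. Most reads of Cd44 lie outside the junctions printed above and were divided by the model of the quantifier, so use of the variable exons and use of the longer 3′ end cannot be told apart in the share. The remaining annotated variants end 0 to 13 bases after the stop codon, and each took at most 0.558% of a group's counts. Between ENSMUST00000060516 and the standard form alone, the variant share differed by 9.45 points between KO/PEG and WT/PEG. That did not pass (permutation test, adjusted p = 0.80), on 0 to 41.1 counts per KO/PEG library. ENSMUST00000060516 had counts in only 3 of 13 KO/PEG and 2 of 11 WT/PEG libraries, so this comparison cannot decide on use of the variable exons.

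**Figure D4:**
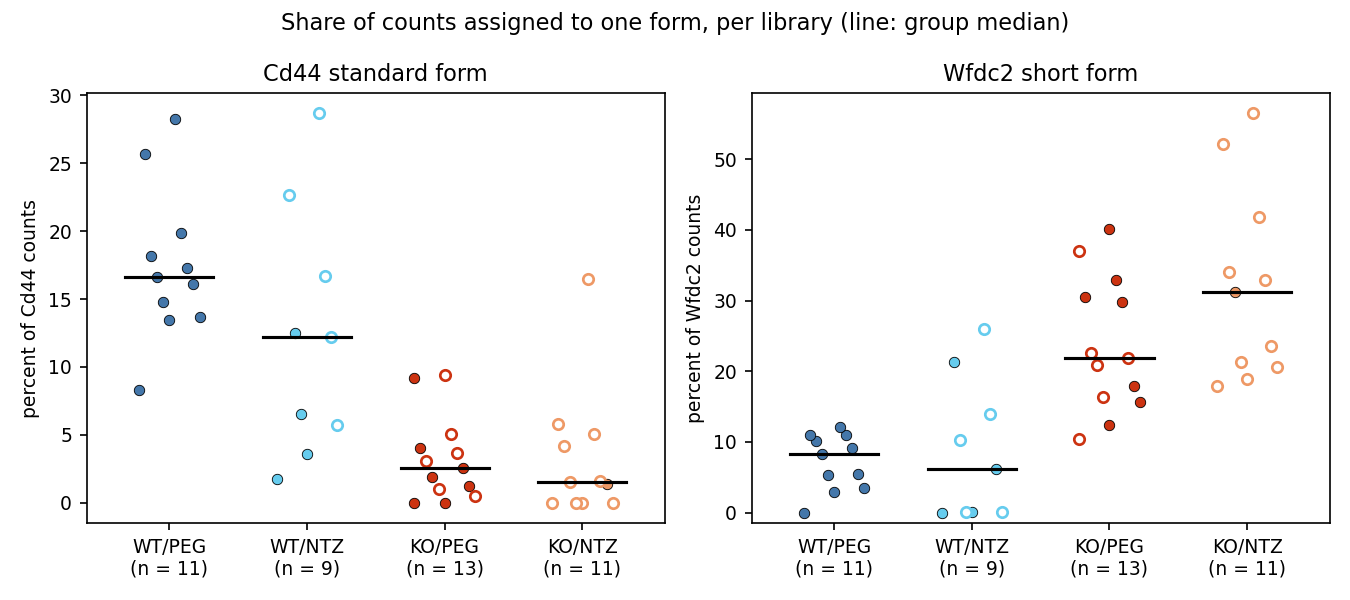
Percent of Cd44 counts given to the standard form (left) and percent of Wfdc2 counts given to the short form (right), 1 point per library, with group medians as lines and open points for animal numbers below 100. The standard Cd44 form has a median of 16.6% in WT/PEG and 2.53% in KO/PEG, and the short Wfdc2 form 8.29% and 21.8%.

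NTZ did not change any of the 4 genes past the threshold in KO mice, where 5.56% of all genes were called. Clu was 0.12 higher on the log2 scale in KO/NTZ than in KO/PEG libraries (95% interval -0.25 to 0.48, adjusted p = 0.693), and Wfdc2 was 0.56 higher (interval -0.09 to 1.21, adjusted p = 0.263). Cd44 was at -0.09 (interval -0.49 to 0.32, adjusted p = 0.801), and the sign turned to 0.06 without KO_46_KO_PEG. Dmbt1 was the member nearest to a change, at -0.85 (interval -1.64 to -0.06, unadjusted p = 0.0346, adjusted p = 0.170, edgeR). For Dmbt1, 9 of the 11 values in KO/NTZ fell short of the median of KO/PEG and 5 of its whole range. The share of all genes with such a shift is not given, so these counts are only a description. Without KO_46_KO_PEG the Dmbt1 value was -0.54. None of the 12 tested transcripts passed, against 2.56% of all transcripts. These intervals leave room for changes of up to the sizes given, so they do not show that the levels were equal.

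In WT mice, where 1.03% of all genes were called, none of the 4 genes passed either. Clu differed by 0.03 and Wfdc2 by 0.46 on the log2 scale between WT/NTZ and WT/PEG libraries (adjusted p = 0.986 and 0.918, edgeR). Cd44 was 0.44 higher (95% interval -0.01 to 0.88, adjusted p = 0.664), and among animal numbers of 100 or above, with 4 WT/NTZ libraries, it was 0.87 higher and passed (adjusted p = 0.0487). Dmbt1 was 0.81 higher (interval -0.04 to 1.66, adjusted p = 0.695), and 0.04 higher without WT_118_WT_YF. The squamous markers of the forestomach (Krt5, Krt14, Trp63, Krt13, Krt4 and Ivl) summed to 0.640 to 324 CPM in WT/PEG and 0.464 to 2968 CPM in WT/NTZ libraries, with medians of 1.07 and 553, and their part in the WT values was not tested. The change with NTZ in KO less that in WT mice was -1.66 for Dmbt1 (SE 0.57, unadjusted p = 0.00588, adjusted p = 0.165), -0.52 for Cd44 (SE 0.30, adjusted p = 0.531), and 0.08 and 0.10 for Clu and Wfdc2 (adjusted p = 0.943 and 0.965), so none of the 4 differences passed, against 0.96% of all genes. Without WT_118_WT_YF the Dmbt1 difference was -0.91.

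**Figure D5:**
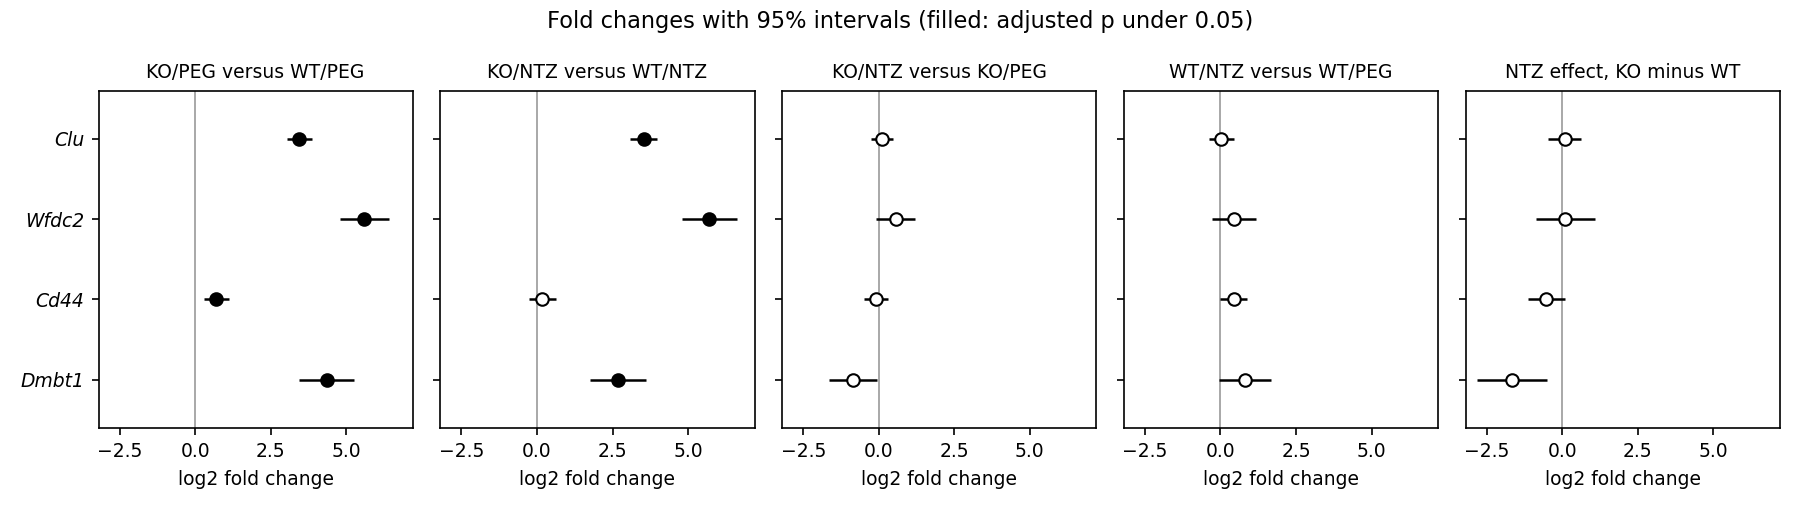
Log2 fold change of each gene with its 95% interval in the 5 comparisons, filled where the adjusted p was under 0.05. Clu, Wfdc2 and Dmbt1 are filled in both comparisons of genotype, Cd44 in KO/PEG versus WT/PEG at 0.69, and no gene in the comparisons of NTZ.

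Ordered by group median, Clu, Wfdc2 and Dmbt1 shared a pattern of a pair of low WT groups and a pair of high KO groups. From low to high, Clu and Wfdc2 went from WT/PEG over WT/NTZ and KO/PEG to KO/NTZ, and Dmbt1 from WT/PEG over WT/NTZ and KO/NTZ to KO/PEG. Neighbours of 1 genotype did not differ past the threshold in any of the 3 genes. Cd44 was ordered WT/PEG, KO/PEG, WT/NTZ, KO/NTZ, with medians of 12.04, 16.2, 17.5 and 19.6 CPM, and the middle pair was not a comparison of the design. Per kilobase of transcript, the scale on which different genes can be compared, the WT/PEG medians were 636 CPM per kb for Clu, 33.0 for Wfdc2, 13.5 for Dmbt1 and 2.72 for Cd44. The KO/PEG medians were 6229 CPM per kb for Clu, 1451 for Wfdc2, 207 for Dmbt1 and 3.39 for Cd44, so the order of the genes was the same in both.

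Within KO mice Clu and Wfdc2 varied together from library to library. Over the 24 KO libraries, with each group's mean taken off, Pearson's r of their log2 levels was 0.87 and Spearman's rho 0.88 (permutation p = 1e-05 for each, the smallest that could be given, adjusted p = 2e-04 over 20 relations). The r stayed at 0.87 without KO_46_KO_PEG and KO_109_KO_PEG, the libraries farthest from the median of Clu, and was 0.93 within the 8 KO libraries numbered 100 or above and 0.85 within the 16 below 100. The relation was not particular to this pair, as the genes listed below for each of them had a higher r. The KO libraries lowest and highest in mitochondrial share, KO_29_KO_YF (1.88%) and KO_46_KO_PEG (14.5%), had 21037 and 3455 CPM of Clu. The part of that share in the relation was not tested. In the 20 WT libraries r was 0.51 and rho 0.31 (permutation p = 0.0241 and 0.198, adjusted p = 0.0987 and 0.603), r was 0.40 without the 2 farthest libraries and 0.64 within the 15 numbered 100 or above, and the 5 below 100 were too few for a correlation. Dmbt1 did not follow them in KO mice. With Clu r was -0.52 and rho -0.22 (permutation p = 0.0247 and 0.301, adjusted p = 0.0987 and 0.603). That r was -0.11 without KO_46_KO_PEG and KO_109_KO_PEG, 0.24 among numbers of 100 or above and -0.62 below 100. With Wfdc2 r was -0.33 and rho -0.27 (permutation p = 0.143 and 0.218, adjusted p = 0.285 and 0.603). In WT mice Dmbt1 had an r of 0.49 and a rho of 0.53 with Wfdc2 (permutation test, adjusted p = 0.101 and 0.12). With Clu they were -0.12 and -0.25 there (adjusted p = 0.669 and 0.603). Cd44 and Dmbt1 in KO mice had an r of 0.48 and a rho of 0.15 (permutation p = 0.0440 and 0.513, adjusted p = 0.110 and 0.754). The r was 0.08 without KO_46_KO_PEG and KO_143_KO_PEG, so the relation in KO mice rested on those libraries. In WT mice Cd44 and Dmbt1 had an r of 0.60 and a rho of 0.36 (permutation p = 0.00983 and 0.135, adjusted p = 0.0655 and 0.541). That r was 0.32 without WT_93_WT_YF and WT_118_WT_YF.

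The 5 genes most like each member over the 24 KO libraries, after the group means were taken off, are given as a description. For Clu they were Ext2 (r = 0.95), Oaf (0.94), Hexa (0.93), Glmp (0.92) and Ntpcr (0.92). Over all 44 libraries with the group means kept, their r with Clu was 0.86 to 0.94. For Wfdc2 they were Mfge8 (0.98), Pdzk1ip1 (0.96), Scarb2 (0.95), Tmem213 (0.94) and Muc1 (0.94), and over all libraries 0.66 for Scarb2 and 0.93 to 0.98 for the other members of that group. For Cd44 they were Csf2rb (0.80), Cxcr4 (0.80), Gcnt2 (0.80), Slc6a14 (0.79) and Zfc3h1 (0.78), of which Gcnt2 and Zfc3h1 had an r of -0.01 and 0.08 over all libraries. For Dmbt1 they were Npepps (0.83), Plat (0.80), Sat1 (0.79), Lyz1 (0.79) and Slc7a11 (0.78), of which Npepps and Slc7a11 had an r of -0.46 and -0.22 over all libraries. The lists for Cd44 and Dmbt1 include KO_46_KO_PEG, the library highest in both genes, and no r without it is given.

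Most other SPEM-related genes were higher in KO mice. Of 15 genes linked to SPEM or the mucous neck cell, put together for this comparison and all tested, 13 rose and 0 fell in KO/PEG compared with WT/PEG mice, with a median log2 fold change of 3.75 where the median of all genes was -0.00288. Among all genes 37.5% were called higher and 37.2% lower there. The list was drawn up with results of these mice known, so its direction is not independent evidence. Gkn3, a mucous neck and SPEM gastrokine, went from a median of 15.4 to 2401 CPM, Tff2, the spasmolytic polypeptide itself, from 910 to 10207 CPM, and Muc6, the gland mucin, from 231 to 2242 CPM. Aqp5, a water channel, went from 0.427 to 51.6 CPM, and Pigr, the receptor that carries IgA into the lumen, from 10.04 to 2216 CPM. Slc7a11 and Mal2 did not pass. Lyz1, a lysozyme gene, had a fitted log2 fold change of 5.84 but medians of only 0.597 and 1.22 CPM, and 1 KO/PEG library at 679 CPM set the KO/PEG mean of 57.8 CPM. In KO/NTZ compared with WT/NTZ mice, where 35.6% of all genes were called higher and 36.8% lower, 12 of the 15 rose. Slc7a11 (log2 -0.83, adjusted p = 0.00190) and Mal2 (-0.45, adjusted p = 0.00478) fell, and Lyz1 did not pass (edgeR). Between KO/NTZ and KO/PEG, where 5.56% of all genes were called, 0 rose and 3 fell by edgeR. They were the cystine transporter gene Slc7a11 (log2 -1.02, SE 0.22, adjusted p = 0.00263), Mal2 (-0.74, adjusted p = 3.47e-04) and Lyz1 (-4.63, adjusted p = 0.00577). The fall of Lyz1 did not pass with DESeq2 (-1.33, adjusted p = 0.198) or limma-trend (-0.43, adjusted p = 0.757), and its medians went the other way, at 1.22 CPM in KO/PEG and 1.497 CPM in KO/NTZ. In WT mice 0 of 15 passed with NTZ by edgeR or limma-trend and 1 by DESeq2.

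Among genes around Cd44 calls went in both directions, as they did among all genes, of which 37.5% were called higher and 37.2% lower. Of its ligands and their enzymes, the hyaluronan synthases Has1, Has2 and Has3 had medians under 0.5 CPM and were not tested. The hyaluronidase gene Hyal1 fell (medians of 7.14 and 2.99 CPM, log2 -1.21), and Hyal2 (16.9 and 31.5 CPM, log2 0.96) and Spp1, which encodes the ligand osteopontin (9.99 and 44.8 CPM, log2 3.04), rose in KO/PEG, and 0 of 3 passed with NTZ in KO mice. Of 6 partners 1 rose, Cd74 (log2 1.21), and 4 fell, among them Ezr, Rdx and Msn, which encode the proteins that tie CD44 to the actin cytoskeleton (-0.72, -1.32 and -0.34). Of the 4 genes for splicing factors known to act on the variable exons, Esrp1 rose (medians of 80.2 and 106 CPM, log2 0.41, adjusted p = 2.29e-06), Khdrbs1 (-0.32) and Tra2b (-0.38) fell, and Esrp2 did not pass (-0.12). With NTZ in KO mice Slc7a11, which is also on the partner list, was the one gene of these lists that passed by edgeR. There 5.56% of all genes were called. Among the splicing factor genes Tra2b was at -0.42 and did not pass (adjusted p = 0.0563, edgeR). With DESeq2, and also with limma-trend, 1 of those 4 genes was called lower.

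Of the 15 other genes of the WAP-domain family, 10 could be tested, and 7 rose and 2 fell in KO/PEG compared with WT/PEG mice, with a median log2 fold change of 2.00. Among all genes 37.5% were called higher and 37.2% lower in that comparison. Wfdc18 (medians of 0.0881 and 10.5 CPM), Wfdc15b (0.211 and 8.89 CPM) and Wfdc3 (0.136 and 2.75 CPM) rose but stayed far below Wfdc2 in CPM. Wfdc10 (log2 -2.80) and Wfdc16 (-2.47) fell. With NTZ in KO mice, where 5.56% of all genes were called, Wfdc10 alone of the 10 passed by edgeR. It was higher (1.87, adjusted p = 9.84e-04). DESeq2 called 2 of the 10 higher there and limma-trend 3. In WT mice 3 of the 10 were higher with NTZ by edgeR, where 1.03% of all genes were called. They were Slpi, a leukocyte protease inhibitor gene, Wfdc12 and Wfdc5. The WT/PEG and WT/NTZ medians were 1.90 and 15.6 CPM for Slpi. They were 0.0998 and 0.403 CPM for Wfdc12 and 0 and 1.64 CPM for Wfdc5. The WT/PEG medians of Wfdc12 and Wfdc5 were under the floor of detection. These are the same libraries whose squamous marker sums are given above, and the part of squamous tissue was not tested. With DESeq2 Slpi and Wfdc12 passed and Wfdc5 did not (adjusted p = 0.0776), and with limma-trend none of them passed (adjusted p = 0.237 to 0.241).

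Of 9 clusterin receptors and secreted chaperones, 8 were tested, and 4 rose and 3 fell in KO/PEG, where 37.5% of all genes were called higher and 37.2% lower. The receptor genes Lrp2 (medians of 77.9 and 4.82 CPM, log2 -3.35) and Vldlr (33.5 and 14.2 CPM, log2 -1.29) fell along with Plxna4 (-1.51), and Lrp8 (1.16), the macrophage receptor gene Trem2 (1.70), Apoe (0.76) and Sdf2l1 (0.58) rose. With NTZ in KO mice, where 5.56% of all genes were called, Trem2 alone of the 8 passed. It was lower (-0.85, adjusted p = 0.00859, edgeR). Of 15 scavenger receptor family genes and partners of Dmbt1, 11 were tested, and 4 rose and 1 fell in KO/PEG, a smaller share called than among all genes. Those that rose included Sftpd, the gene of the lung surfactant lectin that binds the Dmbt1 protein (medians of 0.200 and 97.1 CPM, log2 7.76), and Lgals3, the gene of galectin (45.1 and 136 CPM, log2 2.10). Of the 11, Lgals3 alone passed with NTZ in KO mice, where 5.56% of all genes were called. Its median was 356 CPM in KO/NTZ (log2 0.89, adjusted p = 0.0358, edgeR).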

How the data were processed

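Messenger RNA of 44 gastric corpus libraries was sequenced as single reads of 75 bases from a stranded kit. The authors quantified GRCm38 transcripts with kallisto 0.42.4 and deposited estimated counts for 94080 transcripts, with no normalization. The release of the transcript set and the settings for strand are not given in the sources used here. The study's own test (Sleuth) needs repeated estimates per library, not used here, and edgeR took its place.

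Gene names were taken from GENCODE vM21, which paired 92372 transcripts with 31484 genes, and the 1708 unpaired ones held 0.329 to 1.30% of the counts and were left out of gene sums. Sums were rounded to whole numbers and tested with edgeR 4.0.16 in R 4.3.3 (TMM, filterByExpr with a minimum count of 10, quasi-likelihood, a mean for each of the 4 groups, all 44 libraries), leaving 14901 genes and, by transcript, 30782 transcripts. Adjusted p-values are Benjamini-Hochberg over all features tested, with a threshold of 0.05. Levels are counts per 1000000 (CPM) on TMM-scaled library sizes, fold changes are on the log2 scale of the fit, and correlations used log2 CPM with a prior count of 2. The Cd44 variant share of a library was the percent of its Cd44 counts on transcripts with a variable exon, compared by permutation tests over libraries (exact where a group had under 10 libraries).

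The members, the gene lists and the tests were chosen with earlier results of these data known. Genes were named by rule: the 4 members and their transcripts, Atp4b, the 5 genes most correlated with each member over the KO libraries, and genes of the lists. The marker lists for cell types not described with the members were counted in KO/PEG compared with WT/PEG, where 37.5% of all genes were called higher and 37.2% lower. They gave 0 higher and 4 lower of 4 parietal (the deleted Atp4b among them), 0 and 3 of 3 chief, 0 and 3 of 4 surface mucous, 2 and 0 of 2 mucous neck and 3 and 1 of 4 endocrine genes tested. Of the others, 0 and 3 of 6 fibroblast, 1 and 3 of 4 endothelial, 0 and 3 of 4 smooth muscle, 1 and 0 of 6 squamous, 1 and 1 of 2 pancreatic acinar and 1 and 1 of 3 liver genes were called. The antral list, of Gast alone, was not tested. One marker of the leukocyte list is not reported here and was left out of that list's sums and counts. Alternatives were RLE size factors, DESeq2 1.42.0, limma-trend (limma 3.58.1), other filters on low counts, fits of the compared groups, mitochondrial genes left out, the libraries sharing an animal number summed or left out, animal number as a covariate or a split, and each library left out. After the data had been seen, 4 were added: leaving out KO_46_KO_PEG and WT_118_WT_YF, leaving out the 4 libraries with Gast above 10 CPM, dividing Cd44 counts by transcript length, and comparing the standard form of Cd44 with ENSMUST00000060516 alone. Scripts were tested on simulated counts. Python 3.11.15 and matplotlib 3.10.9 made the figures.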

Additional observations from a re-analysis of the deposited data

Results flagged for a closer look

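WT_118_WT_YF held 749 CPM of Dmbt1, far above the next highest WT/NTZ library at 198 CPM. The gap took 0.772 of the range of the 9 libraries, over the 0.493 that Dixon's test allows at that size. The other groups have more than 10 libraries and were not tested, and chance would flag about 1 in 20 of the 5 values looked at in this way.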

How the results depend on the processing

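The calls of Clu, Wfdc2 and Dmbt1 kept their direction and their side of the threshold in every comparison and every alternative run, apart from turns of sign near 0 in results that did not pass. Cd44 did not: it was 0.42 and lost in KO/PEG compared with WT/PEG among animal numbers of 100 or above, 0.87 and passed in WT/NTZ compared with WT/PEG among the same numbers, and 0.61 and passed in KO/NTZ compared with WT/NTZ among numbers below 100. The cause was not tested. Between KO/NTZ and KO/PEG, Cd44 was -0.15 to 0.0619 with 1 library left out, 0.00169 with limma-trend and 0.0621 without KO_46_KO_PEG and WT_118_WT_YF. Clu in WT/NTZ compared with WT/PEG was -0.00975 to 0.0641 with 1 library left out and -0.00509 without the 4 libraries high in Gast, and the differences of the NTZ effects were -0.0164 to 0.19 for Clu and -0.0693 to 0.33 for Wfdc2 with 1 library left out.

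The Cd44 variant share in percentage points was 6.27 and lost in KO/NTZ compared with WT/NTZ among libraries with 100 or more Cd44 counts, and 11.2 and passed in WT/NTZ compared with WT/PEG among numbers of 100 or above. Between ENSMUST00000060516 and the standard form alone, where there are few counts, it was 9.45 and 13.4 between genotypes given PEG and given NTZ, and 3.35 and -0.60 with NTZ in KO and in WT mice, and none passed. With 1 library left out it was -0.996 to 0.843 in KO/NTZ compared with KO/PEG, 6.34 to 9.73 in KO/NTZ compared with WT/NTZ, and 3.82 to 7.19 in WT/NTZ compared with WT/PEG, where it passed without WT_98_WT_YF (adjusted p = 0.0448). With limma-trend the transcripts ENSMUST00000099673 and ENSMUST00000111194 turned sign in KO/NTZ compared with KO/PEG (-0.17 and 0.0449), and ENSMUST00000109344 in WT/NTZ compared with WT/PEG (-0.38), and ENSMUST00000005218 passed in KO/PEG compared with WT/PEG (1.78, adjusted p = 0.0264).

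The number of genes called with NTZ depended most on the settings. In KO mice it was 1249 with DESeq2, 267 with the compared groups alone, 1288 with the split of animal numbers at 100 as a covariate, 256 among numbers below 100 and 558 to 1815 with 1 library left out, lowest without KO_37_KO_YF and over 1.5 times as high without KO_53_KO_PEG, KO_25_KO_YF or KO_109_KO_PEG. In WT mice (154 genes) it was 2 with limma-trend, 101 with a minimum count of 50, 0 with the compared groups alone (edgeR, 2118 at an unadjusted p under 0.05, where DESeq2 on all groups called 175), 312 with the covariate, 485 among numbers of 100 or above, 5 without the libraries high in Gast, 46 without KO_46_KO_PEG and WT_118_WT_YF, and 57 to 249 with 1 library left out, lowest without WT_118_WT_YF, highest without WT_93_WT_YF and also below 154 by over 1.5 times without WT_117_WT_YF or any of 6 WT/PEG libraries. For the difference between KO and WT mice it was 274 with DESeq2, 53 with limma-trend, 89 with a minimum count of 50, 26 without the libraries high in Gast and 88 to 213 with 1 library left out, lowest without WT_118_WT_YF. Counts of list members called moved by over 1.5 times in 18 of 200 values. No paired analysis was possible because the groups share fewer than 2 animal numbers. Cd44 rested on 65 to 685 counts in the libraries of mice given PEG, which limits what can be said of its forms.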
